A study of Mus musculus with 18 samples.

Results

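The 86 cytoplasmic ribosomal protein genes of the mouse were taken from the 21859 genes of a nascent transcription table by their symbols, as all genes named Rpl or Rps with a number, the stalk genes Rplp0 to Rplp2 and Rpsa. Ribosomal S6 kinases (Rps6k), pseudogene names (-ps) and Rps19bp1 were left out. Of the 86 genes, 77 were canonical, with 46 for the large (60S) and 31 for the small (40S) subunit. A further 7 were paralogs whose symbols end in l or l1 (Rpl3l, Rpl7l1, Rpl10l, Rpl22l1, Rpl36al, Rpl39l and Rps27l), and 2 carried retrogene names (Rps23rg1 and Rps27rt). The choice used names only and no measured value. Fau, which encodes a cytoplasmic ribosomal protein as a fusion, falls outside this rule by its name and is given beside it.

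The RNA came from E14 mouse embryonic stem (ES) cells, an established feeder-free line kept in LIF with inhibitors of GSK3 and MEK. Transient transcriptome sequencing (TT-seq) labels RNA with 4-thiouridine (4sU) for 5 min, so that the sequenced RNA was made during or shortly before the pulse. There were 18 libraries in 6 groups of 3: Untagged, SPT16_AID_V5_Clone1 and SPT16_AID_V5_Clone2 cells, each given 3-IAA or its solvent ethanol (EtOH, 0.1%) for 24 h. All 3 lines carried osTIR1, the plant F-box protein that lets 3-IAA drive the destruction of a degron-tagged protein. In the 2 clones the histone chaperone subunit SPT16 of FACT carried an auxin-inducible degron and a V5 tag on both alleles, and the Untagged line carried neither tag. The labels gave the 3-IAA as 500 nM and the 4sU as 500 mM, where the study's methods give micromolar units for both. Each tagged line was a single clone, and the study describes repeats of a sample as technical and the clones as biological replicates.

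The values described here are 1 number per gene, the authors' mean of size-factor-normalised counts over all libraries, depleted and control together (baseMean). No value per library, error or depth per library accompanied it, so levels carry no SD and a difference between conditions was not analysed here. A bulk mean also cannot tell the number of cells from the RNA made per cell.

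Ribosomal proteins coat and fold the ribosomal RNAs, and each is needed in 1 copy per ribosome, apart from the acidic stalk proteins. Growing cells therefore transcribe this gene family heavily. The mRNAs classically begin with a cytosine followed by a run of pyrimidines, the 5′ terminal oligopyrimidine (TOP) tract, through which mTOR signalling controls their translation. Most of the genes have scattered processed pseudogenes, and many carry small nucleolar RNA (snoRNA) genes in their introns.

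Stretches of 60 bases around the annotated start are shown for a few genes, since the start sequence is what the family is known for. RefSeq promoter entries (GRCm38.p6) matched 66 of the 86 genes. Each stretch runs 5′ to 3′ on the gene's strand, 30 bases before the start and 30 from it, and capitals mark CTTTC or CTTTT. The first set holds genes with the highest upstream antisense signal (Rpl27a, Rpl28, Rps6 and Rpl37) and the gene of highest level per kilobase (Rps12).

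Rpl27a, chr7:109519165-109519224, plus strand: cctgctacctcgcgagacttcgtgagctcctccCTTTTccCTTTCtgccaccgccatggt
Rpl28, chr7:4792935-4792994, plus strand: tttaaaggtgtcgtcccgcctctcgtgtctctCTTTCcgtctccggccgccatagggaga
Rps6, chr4:86857338-86857397, minus strand: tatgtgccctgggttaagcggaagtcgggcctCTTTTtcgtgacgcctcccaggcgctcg
Rpl37, chr15:5116583-5116642, plus strand: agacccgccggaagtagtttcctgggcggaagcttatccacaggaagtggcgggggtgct
Rps12, chr10:23787180-23787239, minus strand: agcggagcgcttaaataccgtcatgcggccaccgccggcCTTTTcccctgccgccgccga

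The second set is the Rps27 family, a canonical gene (Rps27), an intronless retrocopy (Rps27rt) and a spliced paralog (Rps27l), whose levels differed widely.

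Rps27, chr3:90213619-90213678, minus strand: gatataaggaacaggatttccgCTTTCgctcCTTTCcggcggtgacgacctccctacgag
Rps27rt, chr9:114982710-114982769, minus strand: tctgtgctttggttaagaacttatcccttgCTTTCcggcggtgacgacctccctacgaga
Rps27l, chr9:66946056-66946115, plus strand: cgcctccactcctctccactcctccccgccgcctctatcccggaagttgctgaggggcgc

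The annotated start of Rps27rt fell on the first base of the stretch that it shares with Rps27, the second CTTTC of the Rps27 stretch. From there 38 bases in a row were identical, and the sequence before it differed. Between Rps27l and Rps27 the longest shared run in the 300-base window was 8 bases.

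Canonical ribosomal protein genes lay near the top of the nascent transcript levels of these cells. Their median level was 1906 baseMean per kb of gene span (74 genes), 45.9-fold the median of 41.5 over the 17338 genes that had a level and reached a baseMean of 1. This median stood at the 99.5th percentile of those genes. Of the 74 canonical genes, 73 were at or above the 90th percentile, 72 at or above the 95th and 60 at or above the 99th. Of the 100 genes with the highest level per kb, 40 were cytoplasmic ribosomal protein genes and 7 were genes of the mitochondrial genome.

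Without division by length the picture was different. Ribosomal protein genes are short, with a median span of 3289 bases against 23564 bases over all genes that reached a baseMean of 1. Of the 77 canonical genes 73 spanned under 10 kb, against 35.1% of all annotated genes of the table. On the undivided baseMean the canonical median was at the 82.8th percentile, and no member was among the 100 highest genes. Rpl3, whose protein reaches toward the peptidyl transferase centre, had the highest baseMean of the family, 28726, and ranked 174 of all genes. The 86 genes together held 1.04% of the summed baseMean of the table.

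The ES cell label held on its markers in the mean over all libraries. This mean pools 6 depleted with 12 other libraries, so it cannot show whether the label held in the depleted libraries alone. The study reports that depletion lowered pluripotency factor expression and raised differentiation markers. All 8 ES markers (Pou5f1, Sox2, Nanog, Zfp42, Esrrb, Klf4, Tfcp2l1 and Dppa5a) were at or above the 90th percentile per kb, between 401 and 5779. None of the 6 fibroblast markers reached that percentile, with levels per kb between 0.0510 and 23.8, nor did the 3 trophectoderm markers (0.102 to 20.8) or the 3 primitive endoderm markers (1.58 to 6.26).

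**Figure D1:**
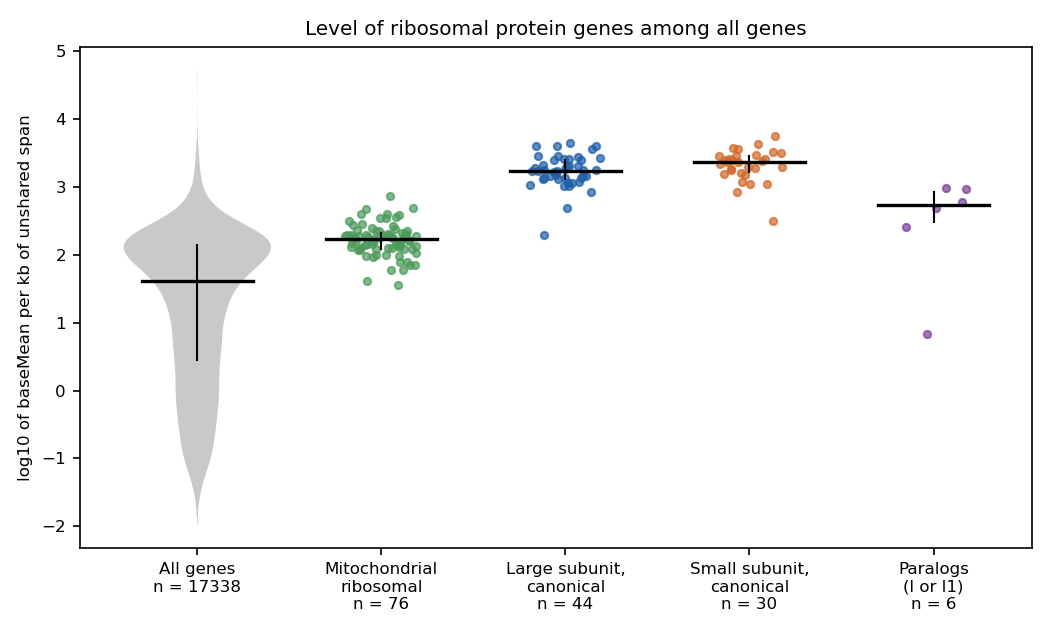
Level of each gene set as log10 of baseMean per kb of unshared gene span. The grey shape is the distribution of all 17338 genes, points are single genes, thick lines are medians and thin lines span the quartiles. The large and small subunit genes lie together, above the 76 mitochondrial ribosomal protein genes, and the 6 paralogs lie lower and spread widely.

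The levels rest on gene spans because of how the counts behave. Of 182 genes whose whole span lay inside other counted genes of the same strand, with no exon in common, 180 (98.9%) were listed at a baseMean of 0, against 5.76% of 20447 genes that shared no span. The listed counts thus behave as counts over whole gene spans, introns included, in which reads in a shared span were given to neither gene. Levels per kb were therefore taken over the part of the span that no other counted gene of the strand covers, and only for genes with at least 50% of it unshared, which left 82 of the 86.

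The other 4 were Rpl13, Rps10, Rpl13a and Rpl36al, and their low values cannot be read as low transcription. Rpl13 was listed at 0, and its span (chr8:123102350-123105244, GRCm38, plus strand) lay 100% inside a gene model of 4434882 bases, Gm20388. Rps10, a protein of the beak of the small subunit, had a baseMean of 15.7 with 76.9% of its span shared with the read-through gene RPS10-NUDT3. Rpl13a, known also for interferon-dependent translational control, had 824 with 88.6% shared, and Rpl36al had 64.2 with 92.4% shared.

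Among the canonical genes the levels were narrow. The middle 50% of the 74 genes spanned 1380 to 2615 per kb, a ratio of 1.89 between the quartiles, and 63 of the 74 were within a factor of 2 of their median. The same ratio was 48.5 over all genes and 1.72 over the 76 mitochondrial ribosomal protein genes. Shorter canonical genes tended to have higher levels per kb, with a Spearman's rho between level and span of -0.408 over the 74. Since the span is also the divisor, the order of genes per kb below is not an order of transcription alone. How much of it comes from the divisor was not tested.

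The small subunit genes were slightly higher than the large subunit genes. Their medians were 2340 per kb (30 genes, 312 to 5655) and 1744 per kb (44 genes, 195 to 4412), a log2 ratio of large over small of -0.42. The distributions overlapped over most of their range. Of the 44 large subunit genes 13 were above the small subunit median, and of the 30 small subunit genes 8 were below the large subunit median. Per kb of exon the log2 ratio was -0.19, and per kb of RefSeq gene length it was -0.52. Genes are not replicates of a condition, so no test was made of this difference.

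**Figure D2:**
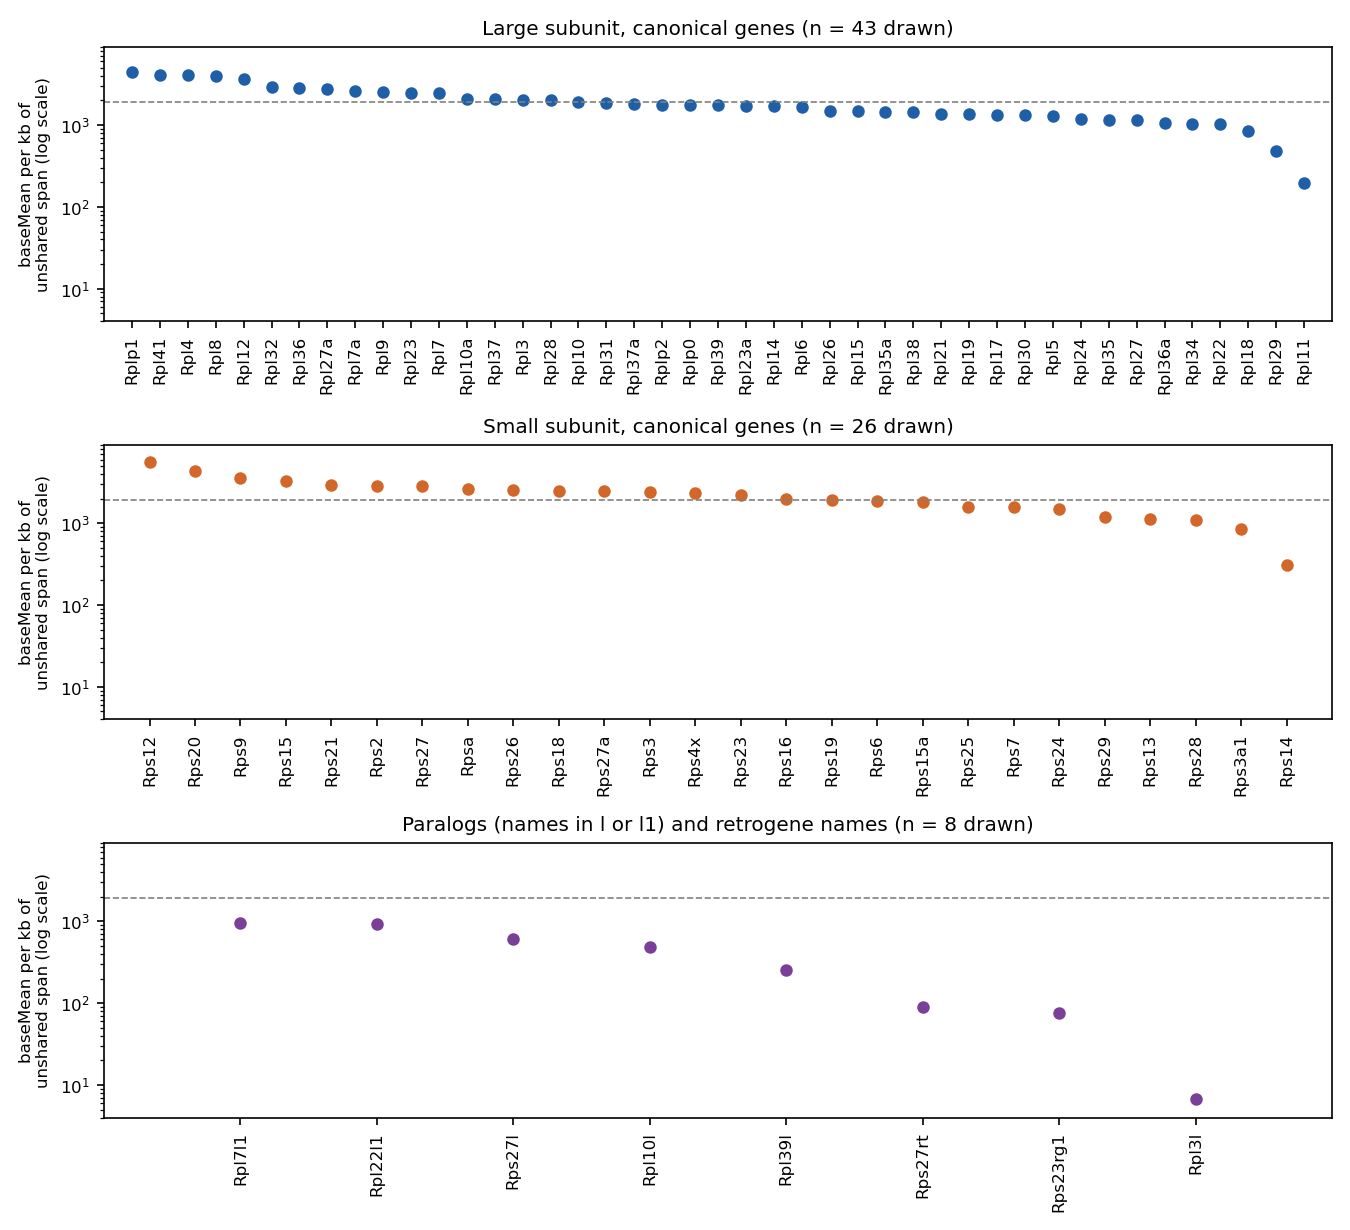
Level of 77 genes with at least 50% unshared span, as baseMean per kb on a log axis, ordered within 43 large subunit genes, 26 small subunit genes and the 8 paralogs and retrogene names; 5 canonical genes with a level are not drawn. The dashed line is the canonical median of 1906 in each panel. Rpl11 and Rps14 stand below the rest of their subunits, and all 8 paralogs and retrogene names lie under the line.

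In the small subunit, Rps12, a protein of the beak, had the highest level of the whole family at 5655 per kb and ranked 13 of all genes per kb. Rps20, of the head of the subunit, had 4350, and Rps9, which sits near the mRNA entry channel, had 3578. Rps15, whose tail reaches the decoding site, had 3249. Per kb of exon the order was another, with Rps15 (8571), Rps4x (6463), Rps2 (5975) and Rps12 (5839) among the highest.

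Genes for mRNA entry and decoding had levels close to one another, and those at the mRNA exit spread more widely. For mRNA entry and decoding (Rps2, Rps3, Rps15 and Rps23) the range was 2187 to 3249 per kb, with a median of 2651. Rps2 had 2867, Rps3 had 2435 and Rps23, a component of the decoding centre, had 2187. At the mRNA exit (5 genes) the range was 312 to 3220 per kb, with a median of 2566, and Rps14, described below, was the lowest. Rpsa, also known as the laminin receptor precursor, had 2590, Rps26 had 2566 and Rps28 had 1110. The Gencode span of Rps28 was 5536 bases against 1527 in RefSeq, over which its level was 4023 per kb. Rps27a, synthesised as a fusion with ubiquitin, had 2492, and Fau, which encodes RPS30 as a fusion with a ubiquitin-like protein, had 1312.

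Rps6, the classical substrate of S6 kinase, was at 1848 per kb, and Rps19, the gene most often mutated in Diamond-Blackfan anaemia, at 1909. The lower end of the small subunit held Rps25 (1583), Rps7 (1562), Rps24 (1499), Rps29 (1190), Rps13 (1112), Rps28 (1110), Rps3a1 (852) and Rps14 (312). Rps14 stood apart by span but not by RefSeq length. Its baseMean of 9816 was above the small subunit median of 6143, but its Gencode span was 31449 bases against 3951 in RefSeq, and over the RefSeq length its level was 2485 per kb.

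In the large subunit, Rplp1, an acidic protein of the stalk that recruits elongation factors, had the highest level at 4412 per kb. Rpl41, the smallest ribosomal protein, had 4070, Rpl4, which lines the peptide exit tunnel, had 4043, Rpl8 had 4020 and Rpl12, at the stalk base, had 3681. The other stalk genes were lower than Rplp1, with Rplp2 at 1774 and the scaffold Rplp0 at 1749. Per kb of exon the 5 highest were Rplp1 (11131), Rpl4 (10660), Rpl38 (10057), Rpl32 (9716) and Rpl3 (9048).

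The 8 genes of the exit tunnel and its port (Rpl4, Rpl17, Rpl19, Rpl23a, Rpl26, Rpl31, Rpl35 and Rpl39) ranged from 1161 to 4043 per kb, with a median of 1602. Near the peptidyl transferase centre, Rpl8 had 4020, Rpl3 had 2040 and Rpl10, which joins the subunit late, had 1902. The 46 canonical genes outside the structural groups named here had a median of 1878, from 487 for Rpl29 to 4350 for Rps20.

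Rpl5 and Rpl11 join the 5S ribosomal RNA and, when free, bind the p53 regulator Mdm2. Rpl5 was at 1290 per kb and Rpl11 at 195, the lowest canonical value. As with Rps14, the Gencode span of Rpl11 (25164 bases) was longer than its RefSeq length (4040 bases), over which Rpl11 had 1217 and Rpl5 had 1291. Over RefSeq lengths the lowest canonical gene with a level was Rpl29, at 384, and it was also low by span (487) and per kb of exon (914). Rpl18 (840) and Rpl30 (1317) were the next lowest of the large subunit per kb of exon, with 1117 and 1368.

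Paralogs were lower than canonical genes as a set, with a median of 542 per kb over 6 genes against 1906, a log2 ratio of 1.81. They spread far more, from 6.81 to 953 per kb, and 4 of the 6 were still at or above the 90th percentile of all genes. Rpl7l1 and Rpl22l1 were the highest of them, and Rpl3l was far below all others.

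Per kb of span, Rpl22l1 was the paralog closest to its canonical gene, whereas per kb of exon Rps27l was closest (1.22) and by baseMean Rpl7l1 (1.00). Rpl22l1 had 938 per kb and Rpl22 had 1026, a ratio of 1.09, which became 0.910 over RefSeq lengths and 3.13 per kb of exon, so that the order of the pair depended on the length used. The baseMeans were 1866 and 8544. Rpl7l1 had almost the baseMean of Rpl7, 8357 against 8396, over a longer span, which gave 953 and 2493 per kb.

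Rps27l, known as a target of p53, had 602 per kb against 2853 for Rps27, a ratio of 4.74, but only 1.22 per kb of exon. Rpl39l, a paralog known from testis, had 256 against 1740 for Rpl39, a ratio of 6.78, which was 2.42 per kb of exon and 4.17 by baseMean. Rpl10l, an intronless autosomal copy of X-linked Rpl10 that is known for its role in male meiosis, had a baseMean of 494 and a level of 483 per kb, against 1902 for Rpl10. Its level was 3.94-fold lower and was at the 96.4th percentile of all genes.

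Rpl3l, the paralog of Rpl3 known from striated muscle, had a baseMean of 56.7 and 6.81 per kb, 300-fold below Rpl3 (749-fold over RefSeq lengths) and at the 31.8th percentile. It lies on chromosome 17 only 5.89 kb beyond the end of Rps2, on the same strand. Rps2 (chr17:24718116-24721929) had 421-fold the level per kb of Rpl3l (chr17:24727820-24736143). In all, 4 pairs of members lay under 100 kb apart.

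The retrogene names were low per kb of span, by an amount that depended on the length used. Rps27rt had a baseMean of 33.6 and 89.9 per kb, 31.7-fold below Rps27. With the whole baseMean of each gene divided by only the span found at a single place in the genome, it was 2.59-fold below. Rps23rg1 had 76.5 per kb, 28.6-fold below Rps23, with a baseMean of 1297 over a span of 16950 bases. Per kb of exon it was 7.35-fold below Rps23, and by baseMean 3.36-fold.

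**Figure D3:**
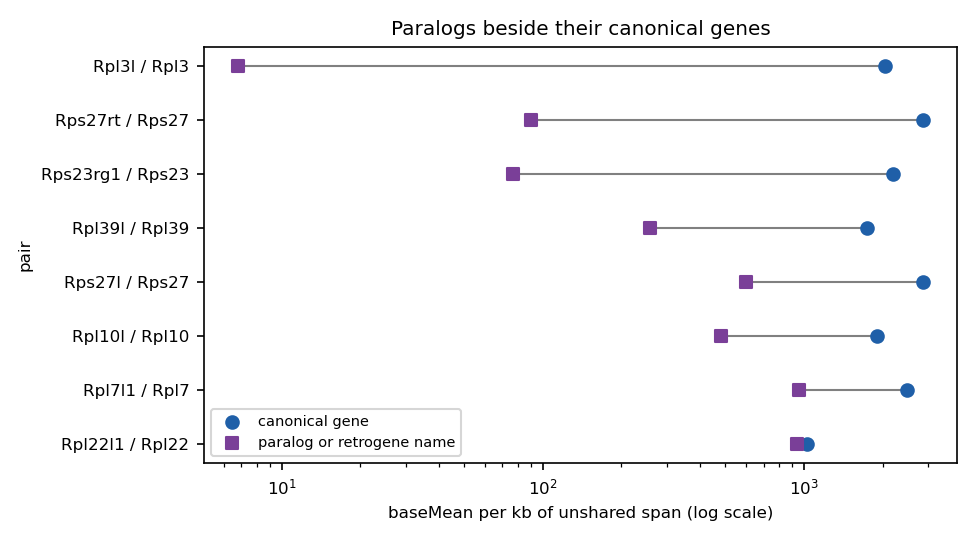
Levels of 8 paralogs and retrogene names (squares) beside their canonical genes (circles), as baseMean per kb of unshared span on a log axis, with a line joining each pair. The pairs run from Rpl22l1, at 938 against 1026 for Rpl22, to Rpl3l, at 6.81 against 2040 for Rpl3. Rpl36al is not drawn because 92.4% of its span is shared.

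The authors kept only reads that aligned to a single place, so a read that matched several copies was not counted. Every 31-base word of each gene span was searched on both strands of the GRCm38 chromosomes. In exons of the canonical genes a median of 25.3% of words occurred at more than 1 place, and in introns 0.136%. In 35 of the 74 canonical genes that had intronic words, no intronic word was repeated. The share of exonic words was at least 50% in 9 canonical genes, and it was highest in Rpl36 (100%), Rps3a1 (81.6%) and Rplp1 (75.3%).

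No reads were counted over the single-copy words alone. Dividing each gene's whole baseMean by only the single-copy part of its span kept the subunit difference. The medians were 2732 for the small and 2044 for the large subunit, a log2 ratio of -0.42. Of the paralogs, Rpl10l had 47.0% of its words at another place and Rpl39l 3.59%. In Rps27rt it was 93.6%, which left 22 of 344 words at a single place. With the whole baseMean divided by that part alone, Rps27rt had 1406 per kb and Rps27 3636, a ratio of 2.59 in place of 31.7. The divisor for Rps27rt rests on these few words, and whether its reads fell on them was not tested.

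Among the 77 canonical genes 30 (39.0%) hosted annotated snoRNA genes, against 1.28% of all annotated genes of the table and 0 of the 78 mitochondrial ribosomal protein genes. The 30 hosts held 58 snoRNA genes of the 399 inside counted genes. They were 20 large and 10 small subunit genes, with 5 snoRNA genes in Rpl4 and 4 in Rpl13a. No paralog held one. Hosts with a level had a median of 2050 per kb (28 genes, 852 to 5655) and the others 1804 (46 genes, 195 to 4412). In the small subunit the medians were 2513 for hosts and 2251 for the others, and in the large subunit 1971 and 1481. The part of snoRNA reads in these levels was not tested.

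Mitochondrial ribosomal protein genes, which serve the ribosome of the organelle, were the most similar family outside the 86. They had a median of 173 per kb (76 genes, 35.7 to 727), 11.0-fold below the canonical cytoplasmic genes, a log2 difference of 3.46. Of the 74 cytoplasmic genes 71 were above Mrps2, the highest mitochondrial gene, and no mitochondrial gene reached the cytoplasmic median. Without division by length the log2 difference was 2.06. The subunits of the mitochondrial ribosome had medians of 180 for Mrpl and 163 for Mrps genes.

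Of 22 ribosome-linked genes outside the rule, 21 had a level per kb, with a median of 804 and a range of 247 to 5227, and 19 were at or above the 90th percentile. The elongation factors Eef1a1 (5227) and Eef2 (4043), the nucleolar protein Npm1 (3615) and Rack1 (2758), a scaffold on the 40S subunit, were above the canonical median. Eef1b2 (2507), Hnrnpa1 (2284) and Pabpc1, the poly(A)-binding protein (1926), were above it too. Tpt1, whose mRNA has a classical TOP tract, was below it at 1562.

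Divergent transcription upstream of the genes was read from a second table, of promoter upstream transcripts (PROMPTs), the antisense RNAs made within 1 kb upstream of a start. That table was normalised separately, so its baseMeans are not on the scale of the gene table. A PROMPT was listed for 65 of the 86 genes. For the other 21 the upstream kilobase overlapped an annotated gene on the PROMPT's strand in every case, as it did for 7 of the 65 listed. Over all genes a PROMPT was listed for 97.9% of 16329 genes without such an overlap and for 38.8% of 5458 with one.

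Nearly every listed gene of the family had PROMPT signal. Of the 65, 60 (92.3%) reached a baseMean of 1, 40 (61.5%) reached 10 and 2 (3.08%) reached 100, against 33.7%, 11.5% and 0.915% of all 32253 PROMPTs. Their median was 16.5. Large and small subunit canonical genes had medians of 16.5 (37 genes) and 14.9 (21 genes). The 1263 other genes at or above the 90th percentile of level per kb had a PROMPT median of 11.5 and 91.2% of at least 1, and the 58 family genes at that level had 18.9 and 94.8%.

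Rpl27a had the highest PROMPT of the family at 118, followed by Rpl28 at 114, Rps6 at 81.9 and Rpl37 at 81.4. At the other end Rpl17 was listed at 0, Rpl32 at 0.410 and Rpl6 at 0.634, although the genes themselves had baseMeans of 6438, 9356 and 7927. Rps12, the highest gene per kb, had a PROMPT of 39.4, and Rpl3, the highest by baseMean, had 9.06, in a window that overlaps Syngr1.

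Within the family, genes of like level had PROMPTs of very different size. Spearman's rho between PROMPT baseMean and gene level per kb was 0.0866 over 62 genes, against 0.636 over 14138 genes of the whole table, and the range of gene levels was far narrower in the family. These are correlations across genes, which are not independent replicates. Paralogs could have PROMPTs as high as canonical genes, with 44.8 for Rpl10l and 43.9 for Rps27l. Rpl39l had 0.842 and Rpl3l 1.84. For the retrogene name Rps23rg1 it was 3.29, and Rps27rt had none listed.

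**Figure D4:**
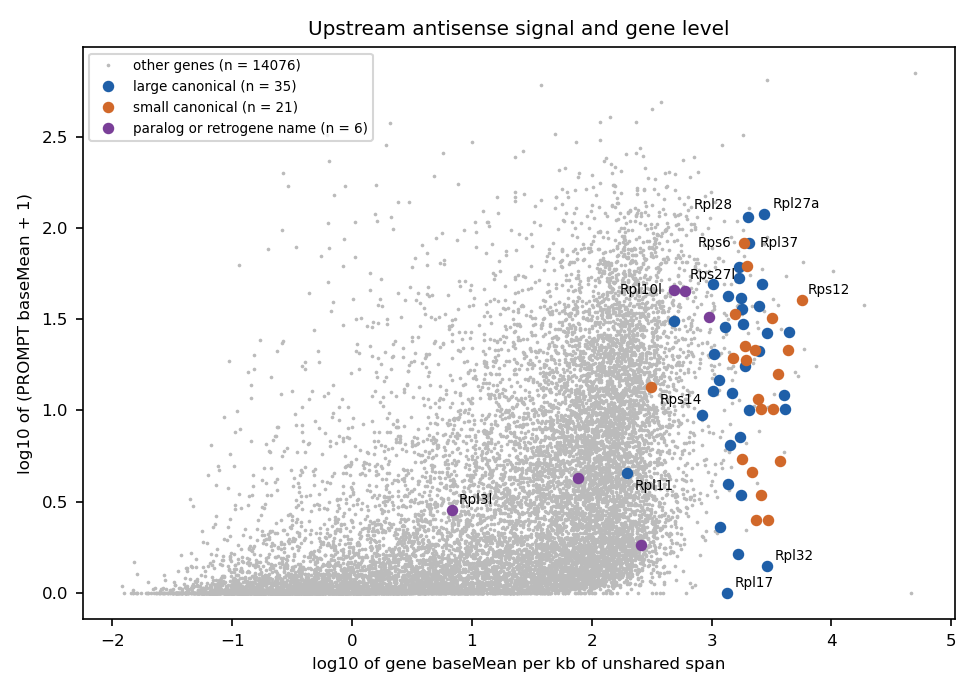
PROMPT baseMean, as log10 of the value plus 1, against gene level, as log10 of baseMean per kb of unshared span, in separately normalised tables. Grey dots are 14076 other genes, and coloured points are 35 large subunit, 21 small subunit and 6 paralog or retrogene genes. Most canonical genes form a narrow column at high gene level, over which the PROMPT runs from 0 for Rpl17 to 118 for Rpl27a. Some points lie left of it, the farthest being Rpl3l at 6.81 and Rps23rg1 at 76.5 per kb.

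Pyrimidine motifs lay near the start more often in canonical genes than over all promoters. CTTTC or CTTTT on the gene's strand, overlaps allowed, lay within 10 bases of the RefSeq start in 14 of the 57 canonical genes with an entry (24.6%, Wilson 95% interval 15.2% to 37.1%, counting error only). The share was 5.18% over the 27025 genes of the promoter table and 1.45% over 69 mitochondrial ribosomal protein genes. It was 11 of 34 in the large subunit, 3 of 23 in the small subunit and 1 of 7 paralogs. Within 20 bases of the start the canonical share was 38.6% against 10.9%, and in the whole 300-base window 82.5% against 56.9%. TATAAA on either strand of the window was found in 6 of the 57 canonical genes (10.5%) and in 15.7% of all genes. A match of letters is not a mapped start or a bound site.

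Rpl27a, Rpl28 and Rps6 in the first set above had the motif within that distance, and Rpl37 and Rps12 had not. Gene levels with and without it overlapped, with medians of 1774 per kb (13 genes, 840 to 3681) and 1844 (41 genes, 195 to 5655). The PROMPT medians were 40.1 for the 7 genes with the motif and a listed PROMPT and 14.3 for the 32 without the motif. The 2 sets overlapped, with 5.49 for Rpl38 and 118 for Rpl27a among the 7, and 81.4 for Rpl37 without the motif. A link between motif and PROMPT was not tested. Genes with no entry included Rpl3, Rpl7, Rpl8, Rpl17, Rpl21, Rpl23a, Rpl29, Rpl30, Rpl32, Rpl36, Rplp1, Rps14, Rps20, Rps27a and Rps29.

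The family was spread over 19 chromosomes. Chromosome 7 held 14 of the 86 genes (16.3%, against 9.26% of all annotated genes of the table), and the X chromosome held 4, all canonical (Rpl10, Rpl36a, Rpl39 and Rps4x). The X-linked genes had levels of 1902, 1057, 1740 and 2367 per kb, within the range of the autosomal genes.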

How the data were processed

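TT-seq of nascent RNA covered 18 libraries. According to the study's methods, the authors ran Trim Galore and then STAR on mm10, kept only uniquely placed reads, counted features by strand with featureCounts (the submitters' processing notes list HTSeq) and normalised with DESeq2. The deposited baseMean is a signal, the mean normalised count over the libraries of the comparison. The 4 remaining value columns of each table hold the authors' own comparison (log2 fold change, its standard error, p-value and adjusted p-value) and were not used. Tables of eRNAs and other ncRNAs were not used.

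Gene spans, exons and snoRNA genes came from Gencode vM21 (GRCm38, the mm10 build), where the authors used vM25; 21817 of 21859 genes matched by identifier. Levels were divided by the unshared gene span in kb, in place of the exon length first planned, because reads proved to be counted over spans. Percentiles are over genes that reached a baseMean of 1. Python 3, numpy and pandas were used, and the functions were tested on simulated data. No test was made across genes. Depleted and control libraries were not compared, since no values per library were used here.

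The members, gene lists and tests were chosen with earlier results of these data known. Named genes are the paralogs and their canonical genes, the retrogene names, the stalk genes, Rpsa, Rps27a, the 5 highest and lowest of each subunit per kb of exon, the 5 highest PROMPTs and a few translation genes; some items under this rule are not reported here. Other genes were named by structural role, or by place per kb of span after their values were seen.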

Additional observations from a re-analysis of the deposited data

How the results depend on the processing

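No paired analysis was possible because the tables hold a mean over libraries and no column per library. For the same reason the edgeR and DESeq2 fits of depleted against control libraries and the fits that leave out a library were not run. The subunit difference kept its direction under all 10 alternatives, but some of them could not change it. Whole spans, a baseMean of at least 1 or 10 and leaving out shared exons kept the same genes and lengths, so the value was identical. The median log2 difference of canonical genes over paralogs (1.81) was 2.74 with geometric means, which weigh Rpl3l more, and moved little under the other 9. The same settings without effect are among these 9. The log2 difference from the mitochondrial family (3.46) was 2.06 without division by length and 2.85 per kb of exon. The family's share of the summed baseMean (1.04%) was 2.81% per kb of exon. The canonical share with CTTTC or CTTTT (24.6%) was 38.6% within 20 bases and 82.5% over the whole 300-base window, as a wider window must give more matches. RefSeq lengths, keeping genes with shared spans and single-copy spans were alternatives chosen after seeing the data. The depth of the libraries is unknown here, so no level has an error.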
